A study of Mus musculus with 12 samples.

Results

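The TNF receptor superfamily is a family of cell-surface receptors for ligands related to tumour necrosis factor. The 9 genes described here were taken by symbol from the deposited expression table: the TNF receptors Tnfrsf1a and Tnfrsf1b, the costimulatory receptors Tnfrsf4 (OX40), Tnfrsf9 (4-1BB, CD137), Tnfrsf18 (GITR) and Cd27, and the death-domain receptors Tnfrsf25 (DR3), Fas and Tnfrsf10b (the mouse TRAIL receptor). They are 9 of 55487 features in the table and 9 of the 12364 that passed the filter on low values. All 9 passed it, but Tnfrsf4 and Tnfrsf25 were under the filter's level, 1 CPM (reads scaled to the library total), in most samples of at least 1 group. Passing through the groups where a gene is high favours, in advance, calls of those groups as higher. Tnfrsf4 passed only in that way and Tnfrsf25 mostly so.

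RNA came from sorted mouse natural killer (NK) cells of the strain B6.129S4-Ifngtm3.1Lky/J, labelled mut/mut, in which yellow fluorescent protein (YFP) reports expression of the interferon gamma gene. All 3 groups carried this allele and were primed in a way the labels call HD IL-15, IL-15 being a cytokine that supports NK cells. The groups were unstimulated cells, and cells given anti-NK1.1, an antibody to an activating receptor of NK cells, for 6 h and then separated by the reporter into YFP- and YFP+ samples. Each group had 4 samples, labelled f2, m2, m3 and m4, and the labels used here give neither the age of the mice nor whether samples sharing a label came from 1 mouse. The p-values below therefore measure the spread between these samples.

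When a ligand of the TNF family gathers its receptor into clusters, the receptor's tail recruits adaptor proteins. Receptors without a death domain bind TRAF proteins, which activate NF-kappaB and kinase pathways and favour survival, division and cytokine release. Receptors with a death domain can also recruit TRADD or FADD and RIPK1, through which they activate caspases or necroptosis. NK cells both carry such receptors and display or release several of the ligands, among them Fas ligand and TRAIL, with which they kill target cells.

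Library totals ran from 32.1 to 54.2 M reads, so that 3 reads, the level chosen here as a floor, corresponded to 0.0553 to 0.0933 CPM. Some values given below lie under that floor. These floors cover counting error only. Ifng, the gene under the reporter, was at 3.66 to 4.19 CPM in unstimulated, 36.6 to 54.5 CPM in YFP- and 303.8 to 343 CPM in YFP+ samples, without overlap. All 9 NK cell markers were detected in every group, with a summed level of 14066 to 16874 CPM in unstimulated, 10703 to 13890 CPM in YFP- and 10483 to 15623 CPM in YFP+ samples. Gzma weighed most in that sum, with medians of 8618, 4519 and 4500 CPM, and the markers differed among themselves in the order of the groups. In unstimulated, YFP- and YFP+ samples Ncr1 had medians of 247, 231 and 125 CPM and Eomes 108, 70.2 and 40.7 CPM. Tbx21 had medians of 32.6, 81.7 and 82.2 CPM and Prf1 2782, 3187 and 3881 CPM. Klrb1c, which encodes the stimulated receptor, was at 290 to 327 CPM, 57.6 to 86.6 CPM and 3.70 to 8.97 CPM in the same order. Of regulatory T cells, which carry much Tnfrsf4 and Tnfrsf18, the defining marker Foxp3 reached at most 0.0789 CPM. Cd4 and Cd8b1 reached at most 0.184 CPM each. The 7 T cell markers summed to 52.8 to 112 CPM, 68.1 to 93.9 CPM and 63.8 to 96.0 CPM, and differed among themselves in the order of the groups. Trac, a T cell receptor gene, had medians of 7.21, 33.8 and 49.3 CPM in unstimulated, YFP- and YFP+ samples, while the CD3 chain genes Cd3g, at 40.7, 31.9 and 19.5 CPM, Cd3d, at 15.5, 14.7 and 10.3 CPM, and Cd3e, at 0.588, 0.922 and 0.0311 CPM, had their lowest medians in YFP+ samples. The 4 B cell markers summed to at most 4.16 CPM and the 6 myeloid markers to at most 2.92 CPM in any sample. The 4 markers of group 2 and 3 innate lymphoid cells summed to 23.8 to 42.1 CPM in unstimulated, 32.2 to 41.0 CPM in YFP- and 9.77 to 18.4 CPM in YFP+ samples. The part of these marker levels in the receptor values was not tested. In such bulk samples, fewer cells with a transcript and less of it per cell cannot be told apart.

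Tnfrsf4, Tnfrsf9, Tnfrsf10b, Fas and Cd27 rose in both stimulated groups and Tnfrsf18 in YFP- samples, and the groups separated by the reporter then differed in Tnfrsf4 one way and in Fas, Tnfrsf25 and Tnfrsf18 the other. Of these differences between YFP+ and YFP- samples, that of Tnfrsf18 was the smallest and lost its call in some settings. In YFP- against unstimulated samples 6 of 9 genes were higher and 0 were lower in limma at an adjusted p under 0.05. Over all genes tested, 51.1% passed in that comparison, 30.2% higher and 20.9% lower. The median change of the 9 was 1.28 on the log2 scale, against 0.14 over all genes. In YFP+ against unstimulated samples 5 were higher and 1 was lower, where 60.8% of all genes passed, 27.5% higher and 33.3% lower, and the median changes were 1.19 for the receptors and -0.03 for all genes. In YFP+ against YFP- samples 1 was higher and 3 were lower, where 21.8% of all genes passed, 3.28% higher and 18.5% lower, and the medians were -0.38 and -0.19. The groups did not overlap for 6, 5 and 4 of the 9 genes in these comparisons, where 52.7%, 54.7% and 22.1% of all genes had groups that did not overlap. Without the YFP+ sample m3, which correlated least with the rest of its group (mean r 0.956 across genes, against 0.959 to 0.971 for the other YFP+ samples), 6, 6 and 5 receptors were called, and 54.8%, 63.0% and 19.4% of all genes. With the 12 other tested receptor genes of the family, described further on, 10 of 21 were higher in YFP- and 8 of 21 in YFP+ than in unstimulated samples, and 2 and 6 were lower. The 3 comparisons share groups: the unstimulated samples serve in 2 of them, as do the YFP- and the YFP+ samples.

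The direction of calls in YFP+ against YFP- samples depended on how the libraries were scaled. As deposited, 405 genes were higher and 2286 lower. Centring each sample on its median gave 1505 and 1491, quantile normalization 1163 and 1430, trimmed-mean scaling 1016 and 1675, and voom weights 1144 and 1627. The median change of all genes moved from -0.19 as deposited to 0.07 with centring. For YFP- against unstimulated samples the split of 3735 higher and 2586 lower became 3072 and 3444 when totals did not count rRNA-like features, Lars2, Mir6236 and Gm23935. Differences under 1 on the log2 scale between YFP+ and YFP- samples are therefore also given for the 9 receptors relative to the median of all genes.

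**Figure D1:**
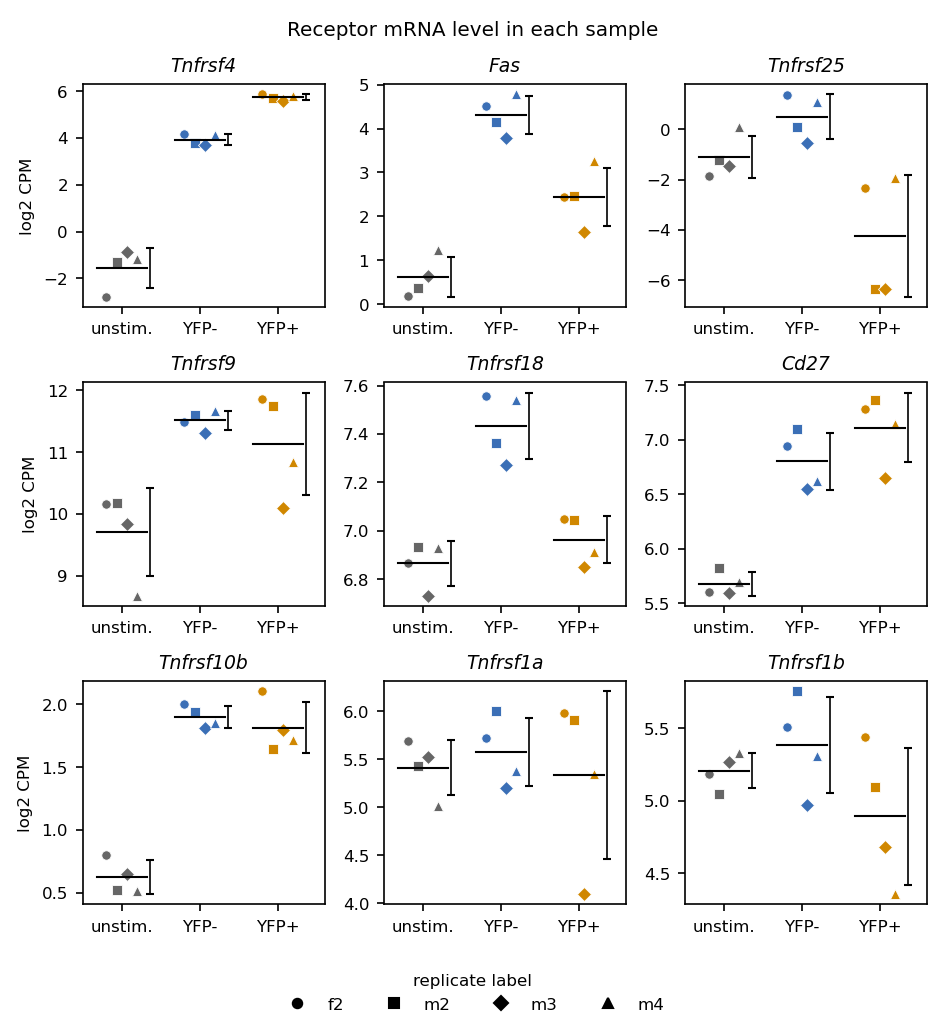
Level of the 9 receptor genes (log2 CPM, vertical axis, own scale per gene) in the 4 samples of each group; symbols are the replicate labels, horizontal lines group means and bars the SD. Tnfrsf4 climbs through the groups without overlap, from at most 0.527 CPM to at least 47.6 CPM, while Fas is highest in YFP- samples; the 2 lowest points of Tnfrsf25 are libraries with 0 reads, drawn at the deposited floor.

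**Figure D2:**
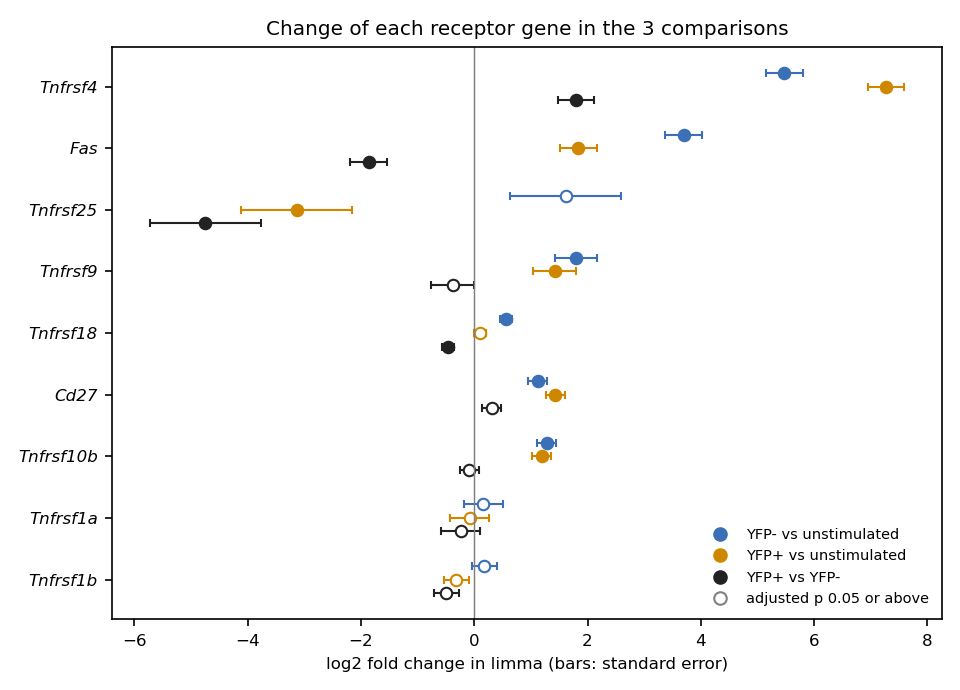
Log2 fold change of each receptor gene in limma (horizontal axis; bars, standard error) in the 3 comparisons; filled points have an adjusted p under 0.05. Tnfrsf4 has the largest rises, 5.47 and 7.27 against unstimulated samples, and Tnfrsf25 the largest fall on this moderated scale, -4.75 in YFP+ against YFP- samples, which with a pseudocount of 1 CPM was -1.18.

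Tnfrsf4 encodes OX40, a costimulatory receptor that lymphocytes display after activation and whose ligand OX40L is the product of Tnfsf4. The gene lies on the plus strand of chromosome 4 at chr4:156013843-156016612 (GRCm38). It was nearly absent before stimulation, with 0.131, 0.395, 0.527 and 0.432 CPM in unstimulated samples f2, m2, m3 and m4 (5, 15, 21 and 14 reads). YFP- samples held 17.8, 13.6, 12.9 and 17.3 CPM, and YFP+ samples 58.4, 51.4, 47.6 and 55.3 CPM. The groups stood apart from each other in all 3 comparisons, and within each stimulated group the highest sample was under 1.5 times the lowest. The log2 fold change was 5.47 in YFP- against unstimulated samples (SE 0.32, adjusted p = 4.1e-08 in limma). In YFP+ against YFP- samples it was 1.80, a 3.47-fold higher level (SE 0.32, adjusted p = 0.0015 in limma), with all 4 labels in that direction. Against unstimulated samples YFP+ samples differed by 7.27 (adjusted p = 1.4e-09 in limma). No unstimulated sample was above the filter's level, so Tnfrsf4 was tested only through the stimulated groups. That favours its calls against unstimulated samples in advance. With a pseudocount of 1 CPM the change in YFP- against unstimulated samples was 3.58, since that scale understates changes of genes with few reads. Of the 9 receptors, the other 3 with a call in YFP+ against YFP- samples were lower there.

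Tnfrsf18 encodes GITR, a costimulatory receptor for the product of Tnfsf18. It is the neighbour of Tnfrsf4 on the same strand, at chr4:156026164-156028895, 9551 bases away. Its level was 117, 122, 106 and 122 CPM in unstimulated samples, 188, 165, 155 and 186 CPM in YFP- samples, and 132, 132, 115 and 121 CPM in YFP+ samples. YFP- samples were thus above all others, and the unstimulated and YFP+ ranges overlapped. The rise in YFP- against unstimulated samples was 0.57 on the log2 scale, or 1.48-fold (SE 0.11, adjusted p = 0.00061 in limma). YFP+ were below YFP- samples by a log2 difference of -0.47, or 1.38-fold (SE 0.11, adjusted p = 0.0065 in limma), which is -0.28 relative to the median of all genes. This call was lost without replicate m4, at -0.42 (adjusted p = 0.071 in limma), and with median centring, at -0.21 (adjusted p = 0.18 in limma). Of its exon bases 27.2% are shared with Gm16008, a gene on the opposite strand, and the library kit does not mark strand. Gm16008 was assigned only 1 to 21 reads per library. So of these neighbours, with values as deposited, Tnfrsf4 was higher and Tnfrsf18 lower in YFP+ than in YFP- samples, the latter by a call that depended on the setting.

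Flanking sequence is shown for 5 of the receptors with a call, the neighbours Tnfrsf4 and Tnfrsf18 and those whose windows held an AP-1 or a kappaB match. RefSeq promoter windows (GRCm38.p6) of 250 bases before a gene start were matched by symbol for 8 of the 9 members, Tnfrsf9 and Tnfrsf25 having 2 windows each. In all 32851 windows and on both strands, letters of 4 kinds were searched, each the binding motif of a transcription factor family that lymphocyte activation is known to engage. The NFAT core GGAAA occurred in 55.57% of all windows, the AP-1 motif TGANTCA in 6.749%, the kappaB consensus in 7.251% and the Egr motif GCGNGGGCG in 4.697%. Some kappaB matches contain an NFAT core in reverse. The stretches of Tnfrsf4 and Tnfrsf18 that lie outside annotated exons follow in the direction of transcription, matches in capitals, the first covering chr4:156013611-156013694 and the second chr4:156026072-156026163, both on the plus strand.
Tnfrsf4: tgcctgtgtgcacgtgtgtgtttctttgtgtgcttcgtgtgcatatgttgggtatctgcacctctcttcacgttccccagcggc
Tnfrsf18: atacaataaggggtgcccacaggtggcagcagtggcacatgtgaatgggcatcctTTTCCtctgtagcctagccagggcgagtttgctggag
The Tnfrsf4 stretch of 84 bases ends 1 base before the RefSeq start and holds none of the 4 motifs, while the part of the window not shown holds 1 NFAT core (TTTCC), 220 bases before the start. Its RefSeq start, at position 156013695, lies upstream of the annotated gene start that GENCODE gives, and the remaining part of the window is exon of the neighbouring gene Sdf4. The Tnfrsf18 stretch holds 1 NFAT core on the reverse strand (TTTCC), and the part not shown holds another (GGAAA), 61 bases before the start.

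Cd27 encodes a costimulatory receptor of T and NK cells that binds CD70, and in mouse NK cells it marks less mature subsets. It lies on the minus strand at chr6:125232622-125237010. Unstimulated samples held 48.5, 56.7, 48.2 and 51.8 CPM, YFP- samples 123, 137, 93.5 and 98.1 CPM, and YFP+ samples 156, 165, 100 and 141 CPM. Every stimulated sample was above every unstimulated sample, whereas the stimulated groups overlapped. The log2 fold change was 1.12 in YFP- against unstimulated samples (SE 0.17, adjusted p = 0.00010 in limma) and 1.43 in YFP+ against unstimulated samples (SE 0.17, adjusted p = 6.1e-06 in limma). YFP+ exceeded YFP- samples at all 4 labels by 0.31 (SE 0.17), which did not pass (adjusted p = 0.21 in limma) and which is 0.50 relative to the median of all genes. It passed under 4 other scalings: median centring gave 0.57 (adjusted p = 0.0038 in limma), quantile normalization 0.38 (adjusted p = 0.035), trimmed-mean scaling 0.46 (adjusted p = 0.049) and voom weights 0.47 (adjusted p = 0.042). It did not pass when totals did not count rRNA-like features, at 0.27 (adjusted p = 0.16 in limma), or Lars2, Mir6236 and Gm23935 either, at 0.30 (adjusted p = 0.096). Without the YFP+ sample m3 it was 0.46 and passed as well (adjusted p = 0.037 in limma). Cd27 shares 129 exon bases with Mir8113, which had 0 reads in every library.

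Tnfrsf9 encodes 4-1BB, a costimulatory receptor whose ligand 4-1BBL is the product of Tnfsf9. It lies on the plus strand at chr4:150914562-150946102. It was already abundant before stimulation, at 1150, 1159, 913 and 410 CPM in unstimulated samples f2, m2, m3 and m4. YFP- samples held 2871, 3092, 2535 and 3239 CPM, and YFP+ samples 3693, 3437, 1096 and 1822 CPM. All YFP- samples were above all unstimulated samples, but the YFP+ samples spread widely, with m3 below unstimulated f2 and m2. The rise was 1.80 on the log2 scale in YFP- against unstimulated samples, or 3.48-fold (SE 0.37, adjusted p = 0.0014 in limma). In YFP+ against unstimulated samples it was 1.42, or 2.67-fold (SE 0.37, adjusted p = 0.0048 in limma), in spite of the overlap and in the same direction at all 4 labels. YFP+ against YFP- samples differed by -0.38 (SE 0.37, adjusted p = 0.51 in limma), or -0.19 relative to the median of all genes, with 2 labels higher and 2 lower.

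The flank of the second RefSeq start of Tnfrsf9 was the only one of the 10 windows with both an AP-1 and a kappaB match. It is shown for that reason, in 3 pieces on the plus strand. The first, chr4:150927749-150927917, lies outside annotated exons, within an intron of longer Tnfrsf9 transcripts and of Camta1 on the opposite strand. The others, chr4:150927946-150927975 and chr4:150927969-150927998, are stretches of 30 bases around the kappaB and the AP-1 match, which lie in an exon annotated as untranslated for 1 transcript.
Tnfrsf9 flank: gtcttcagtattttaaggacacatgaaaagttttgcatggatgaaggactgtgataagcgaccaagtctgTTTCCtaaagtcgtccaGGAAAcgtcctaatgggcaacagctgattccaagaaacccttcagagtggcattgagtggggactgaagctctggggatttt
Tnfrsf9 kappaB: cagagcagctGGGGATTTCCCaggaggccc
Tnfrsf9 AP-1: gaggccctgctcagtTGAGTCAcaggtcct
The flank holds an NFAT core on each strand, capitals again marking the matches. The kappaB piece holds 2 overlapping matches, which begin 43 and 42 bases before the start and include 1 more NFAT core. The AP-1 match TGAGTCA begins 15 bases before the start. The other Tnfrsf9 window, further upstream, holds 2 NFAT cores and no match to the other motifs.

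Fas encodes the death receptor for Fas ligand. It lies on the plus strand at chr19:34290666-34327772. Its level was 1.13, 1.29, 1.56 and 2.34 CPM in unstimulated samples, 23.0, 17.7, 13.8 and 27.5 CPM in YFP- samples, and 5.40, 5.48, 3.12 and 9.58 CPM in YFP+ samples. The 3 groups did not overlap, and YFP+ samples lay between the other groups at every label. YFP- samples exceeded unstimulated samples by 3.70 on the log2 scale, or 12.97-fold (SE 0.33, adjusted p = 1.4e-06 in limma). YFP+ samples exceeded unstimulated samples by 1.84, or 3.57-fold (SE 0.33, adjusted p = 0.00026 in limma). YFP+ were below YFP- samples by a log2 difference of -1.86, or 3.63-fold (SE 0.33, adjusted p = 0.0013 in limma), lower at 4 of 4 labels, and every alternative setting kept all 3 calls. The window before the Fas start, chr19:34290409-34290658 on the plus strand, is printed because it was the only other one with an AP-1 match.
Fas: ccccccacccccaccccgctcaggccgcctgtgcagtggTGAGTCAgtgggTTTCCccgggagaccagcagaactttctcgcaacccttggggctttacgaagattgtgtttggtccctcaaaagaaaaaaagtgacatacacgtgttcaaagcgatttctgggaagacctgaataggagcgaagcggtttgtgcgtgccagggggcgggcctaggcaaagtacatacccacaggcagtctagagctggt
Its capitals mark the AP-1 match TGAGTCA, which begins 211 bases before the RefSeq start, and an NFAT core on the reverse strand 199 bases before it. The windows of Tnfrsf1a and Tnfrsf1b held 0 matches to any of the 4 motifs, and that of Cd27 held 1 NFAT core.

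Tnfrsf25 encodes DR3, a death-domain receptor for TL1A, the product of Tnfsf15, that costimulates T cells and innate lymphoid cells. It lies on the plus strand at chr4:152115934-152120119 and was the rarest member in YFP+ samples. Unstimulated samples gave 10, 16, 14 and 34 reads, YFP- samples 115, 52, 29 and 104 reads, and YFP+ samples 9, 0, 0 and 8 reads. In CPM these are 0.262, 0.421, 0.351 and 1.05 for unstimulated, 2.596, 1.05, 0.668 and 2.12 for YFP-, and 0.184, 0, 0 and 0.249 for YFP+ samples, with m2 and m3 at 0. YFP+ samples were below all others, and the YFP- and unstimulated ranges overlapped. Pooled over 4 libraries the level was 0.499 CPM in unstimulated (74 reads), 1.61 CPM in YFP- (300 reads) and 0.0991 CPM in YFP+ samples (17 reads). The fitted log2 difference in YFP+ against YFP- samples was -4.75 (SE 0.98, adjusted p = 0.0036 in limma), a size that depends on the prior added to the libraries with 0 reads, and with a pseudocount of 1 CPM it was -1.18. Only YFP- samples f2, m2 and m4 and unstimulated sample m4 were above the filter's level, 1 CPM. Tnfrsf25 was thus tested mainly because it was high in YFP- samples, which favours this call in advance. YFP+ against unstimulated samples differed by -3.13 (SE 0.98, adjusted p = 0.013 in limma). That call was lost without replicate m2, at -2.47 (adjusted p = 0.081 in limma), without replicate m3, at -2.55 (adjusted p = 0.056), and with the pseudocount of 1 CPM, at -0.44 (adjusted p = 0.11). YFP- exceeded unstimulated samples at all 4 labels by 1.61 (SE 0.98), which did not pass (adjusted p = 0.18 in limma), while it passed at 0.74 with the pseudocount of 1 CPM (adjusted p = 0.014 in limma) and at 1.61 in a fit of only the 8 samples compared (adjusted p = 0.014). The flank of its second RefSeq start, chr4:152116115-152116342 on the plus strand, lies within the gene and outside annotated exons, and is printed for its kappaB match.
Tnfrsf25: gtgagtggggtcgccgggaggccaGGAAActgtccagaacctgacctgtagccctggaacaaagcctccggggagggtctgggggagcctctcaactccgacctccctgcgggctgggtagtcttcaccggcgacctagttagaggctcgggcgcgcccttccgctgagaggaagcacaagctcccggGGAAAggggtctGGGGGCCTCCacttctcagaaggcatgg
Its capitals mark the kappaB match GGGGGCCTCC, which begins 28 bases before the start, and NFAT cores 204 and 40 bases before it. The window of the first start held 1 NFAT core.

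Tnfrsf10b encodes the mouse death receptor for TRAIL, the product of Tnfsf10. It lies on the plus strand at chr14:69767472-69784411. It was low throughout, at 1.73, 1.42, 1.56 and 1.42 CPM in unstimulated samples, 3.995, 3.83, 3.50 and 3.59 CPM in YFP- samples, and 4.29, 3.12, 3.45 and 3.27 CPM in YFP+ samples. Both stimulated groups were above all unstimulated samples and overlapped each other. The rise against unstimulated samples was 1.28 in YFP- (SE 0.17, adjusted p = 3.8e-05 in limma) and 1.19 in YFP+ samples (SE 0.17, adjusted p = 3.4e-05 in limma). Between YFP+ and YFP- samples the difference of -0.09 (SE 0.17) did not pass (adjusted p = 0.75 in limma), and its sign changed with the scaling, being 0.10 relative to the median of all genes.

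Tnfrsf1a encodes the broadly expressed TNF receptor 1, which has a death domain, and Tnfrsf1b the TNF receptor 2 of lymphocytes, which has none. They lie at chr6:125349362-125362484 on the plus and chr4:145213463-145246870 on the minus strand. Tnfrsf1a was at 51.7, 43.0, 46.0 and 32.2 CPM in unstimulated samples, 52.6, 64.2, 36.7 and 41.6 CPM in YFP- samples, and 63.3, 60.2, 17.1 and 40.7 CPM in YFP+ samples. Tnfrsf1b was at 36.4, 33.0, 38.4 and 40.2 CPM, 45.5, 54.0, 31.3 and 39.6 CPM, and 43.3, 34.1, 25.7 and 20.4 CPM in the same order. The groups of both genes overlapped in every comparison, and neither gene passed in any of them. For Tnfrsf1a the log2 differences ran from -0.24 (YFP+ against YFP- samples, -0.05 relative to the median of all genes) to 0.16, each with an SE of 0.34, and their signs changed among the alternatives, for example to 0.17 in YFP+ against YFP- samples without the YFP+ sample m3. For Tnfrsf1b the difference in YFP+ against YFP- samples was -0.49 (SE 0.22, adjusted p = 0.13 in limma), or -0.31 relative to the median of all genes, lower at 4 of 4 labels. Its difference in YFP+ against unstimulated samples, -0.32 (SE 0.22, adjusted p = 0.23 in limma), passed at -0.51 (adjusted p = 0.026) when rRNA-like features, Lars2, Mir6236 and Gm23935 were left out of the library totals. Missing the threshold does not show that the levels were alike. Per kb of exon length the ratio of Tnfrsf1b to Tnfrsf1a had a median of 0.544 before stimulation, 0.583 in YFP- samples and 0.424 in YFP+ samples, with ranges of 0.477 to 0.847, 0.571 to 0.646 and 0.341 to 1.02.

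Some of the spread within groups was shared by the receptors. Among YFP- samples m3 was the lowest of 4 for 9 of 9 receptor genes, as it was for 55.0% of all genes tested. Among YFP+ samples m3 was the lowest for 6 of 9, and for 40.8% of all genes. These libraries had the highest share of rRNA-like reads in their groups, 17.8% against 7.15% to 10.9% in the other YFP- libraries and 15.5% against 5.13% to 7.62% in the other YFP+ libraries. When totals did not count rRNA-like features, m3 was the lowest for 5 of 9 among YFP- and 4 of 9 among YFP+ samples, and for 36.6% and 30.9% of all genes. When they did not count Lars2, Mir6236 and Gm23935 either, it was so for 3 of 9 and 4 of 9, and for 26.9% and 27.7% of all genes. In the unstimulated group, where the shares ran from 12.0% to 15.2%, no label was the lowest for more than 3 of the 9. Over all genes tested, with totals as deposited, m4 was the lowest of that group for 39.8% and f2 for 31.2%.

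The order of the receptors by level was compared in CPM per kb of exon length. Tnfrsf9 came first in all 3 groups, at 333 ± 129 CPM per kb (SD, n = 4) before stimulation, 1078 ± 112 in YFP- samples and 923 ± 461 in YFP+ samples, ranking 192nd, 64th and 71st among the genes tested. Its share of the summed level of the 9 genes was 54.2% to 76.7% before stimulation, 81.8% to 84.5% in YFP- samples and 70.4% to 85.2% in YFP+ samples. Tnfrsf18 came next, at 76.6 ± 4.84, 114 ± 10.8 and 82.0 ± 5.58 CPM per kb, followed by Cd27 at 22.04 ± 1.70, 48.5 ± 8.81 and 60.4 ± 12.2 CPM per kb (each SD, n = 4). In unstimulated samples Tnfrsf1a (16.7 CPM per kb), Tnfrsf1b (9.69) and Fas (0.766) followed without overlap, and Tnfrsf10b (0.281), Tnfrsf4 (0.272) and Tnfrsf25 (0.229) overlapped at the lower end. In YFP- samples Tnfrsf1a (18.8 CPM per kb) was followed by Tnfrsf4 (11.3), Tnfrsf1b (11.2) and Fas (9.94), whose ranges overlapped, and then by Tnfrsf25 (0.707) and Tnfrsf10b (0.684), which overlapped as well. In YFP+ samples Tnfrsf4 (38.9 CPM per kb) stood in 4th place without overlap with its neighbours, ahead of Tnfrsf1a (17.5) and Tnfrsf1b (8.09), which overlapped each other, then Fas (2.86), Tnfrsf10b (0.648) and Tnfrsf25 (0.0475).

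**Figure D3:**
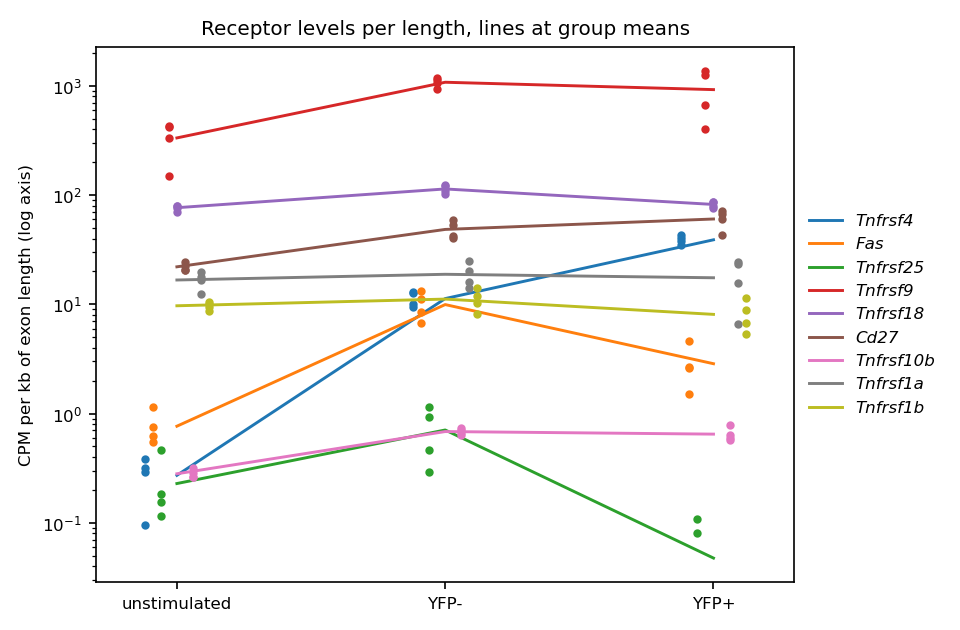
Level of the 9 receptor genes in CPM per kb of exon length (log axis); points are samples, lines join group means, and samples with 0 reads (2 YFP+ samples of Tnfrsf25) are not drawn. Tnfrsf9 is first in each group, at means of 333, 1078 and 923, and Tnfrsf4 moves from 0.272 to 38.9.

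For each receptor the most similar profiles were sought over the 12 samples, as the smallest root mean square difference of log2 CPM after centring each gene. Tnfrsf4 was nearest to the chemokine genes Ccl3, at 0.468, and Xcl1, at 0.509. Fas was nearest to Dennd5a, at 0.497, and to Nfkbia, which encodes the NF-kappaB inhibitor IkappaB-alpha, at 0.564. Tnfrsf9 was nearest to Utp6 (0.169) and Cct3 (0.202), Cd27 to Sft2d1 (0.0927) and Gtf2h2 (0.121), and Tnfrsf18 to Eif3h (0.107) and Syf2 (0.110). Tnfrsf10b was nearest to Atp6v0c (0.134) and Taf13 (0.144), Tnfrsf1a to Slc35e4 (0.126) and Coasy (0.129), and Tnfrsf1b to Git2 (0.139) and Spop (0.147). Tnfrsf25, with 2 libraries at 0 reads, was nearest to Cd200r2 (1.20) and Lypd6b (1.23). Genes that vary little are near to many others on this measure, so the values rank likeness for each receptor separately.

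The tested ligand genes of the family had larger median changes on stimulation than the receptors. Of 18 ligand genes of the family 12 were tested. Of these, Cd70, Tnfsf4 and Tnfsf11 were under the filter's level in every unstimulated sample, as was Tnfrsf4 among the receptors. They were tested only because they were high in stimulated samples, which favours their rises and a larger ligand median in advance. In YFP- against unstimulated samples 9 were higher and 0 lower in limma, with a median change of 4.21, and in YFP+ against unstimulated samples 8 were higher and 3 lower, with a median of 3.91, beside 51.1% and 60.8% of all genes called. In YFP+ against YFP- samples 1 was higher and 5 were lower, with a median of -0.58, beside 21.8% of all genes. With centring, quantile normalization, trimmed-mean scaling or voom weights that last count was 3 higher and 4 to 6 lower.

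Cd70, the ligand gene of CD27, went from 0.0502 to 0.157 CPM in unstimulated samples (2 to 6 reads) to 8.57 to 13.7 CPM in YFP- and 17.8 to 20.9 CPM in YFP+ samples. The rises against unstimulated samples passed, at 6.96 and 7.79 (adjusted p = 2.1e-09 and 4.0e-10 in limma), calls that testing Cd70 only through its stimulated samples favours in advance. The stimulated groups did not overlap, yet their difference of 0.83 (SE 0.29) did not pass as deposited (adjusted p = 0.055 in limma), and it passed at 0.99 with trimmed-mean scaling (adjusted p = 0.032) and at 1.096 with median centring (adjusted p = 0.017). Tnfsf4, the ligand gene of OX40, was at 0 to 0.236 CPM in unstimulated, 4.16 to 8.05 CPM in YFP- and 3.09 to 11.9 CPM in YFP+ samples, so it rose in both stimulated groups (adjusted p = 3.3e-05 and 1.5e-05 in limma). The rises of Tnfsf4 are favoured in advance in the same way as those of Cd70. Its difference between the stimulated groups was 0.05 (SE 0.89, adjusted p = 0.98 in limma). Tnfsf9, the ligand gene of 4-1BB, took another course, with 11.7 to 13.3 CPM in unstimulated, 14.8 to 22.6 CPM in YFP- and 4.96 to 6.97 CPM in YFP+ samples. It was lower in YFP+ than in YFP- samples by a log2 difference of -1.56 (SE 0.16, adjusted p = 3.2e-05 in limma) and than in unstimulated samples by one of -1.10 (adjusted p = 4.8e-05 in limma). Its rise of 0.46 in YFP- against unstimulated samples (adjusted p = 0.029 in limma) was lost in several settings, for example at 0.30 without replicate f2 (adjusted p = 0.18), at 0.49 without replicate m2 (adjusted p = 0.080), at 0.53 without replicate m4 (adjusted p = 0.053) and at 0.32 with median centring (adjusted p = 0.12).

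Tnf, whose product binds both TNF receptors, was at 2.31 to 3.87 CPM in unstimulated, 61.9 to 75.1 CPM in YFP- and 74.97 to 113 CPM in YFP+ samples. It rose in both stimulated groups, by 4.40 and 4.95 (adjusted p = 1.1e-09 and 2.7e-10 in limma). Its higher level in YFP+ against YFP- samples, 0.55 (SE 0.17, adjusted p = 0.037 in limma), was lost without replicate f2, at 0.50 (adjusted p = 0.14), without m2, at 0.48 (adjusted p = 0.19), without m4, at 0.53 (adjusted p = 0.067), and with no filter on low values (adjusted p = 0.073). Lta, the gene of lymphotoxin alpha, which binds the same receptors, was at 0.892 to 1.79 CPM, 46.1 to 89.4 CPM and 24.6 to 42.5 CPM, without overlap. It was lower in YFP+ than in YFP- samples by a log2 difference of -0.97 (SE 0.26, adjusted p = 0.017 in limma), a call lost without replicate m2, at -1.04 (adjusted p = 0.056), and with median centring, at -0.71 (adjusted p = 0.062). Tnfsf10, the gene of TRAIL, was at 5.35 to 8.88 CPM, 18.8 to 33.6 CPM and 10.6 to 16.1 CPM. It rose in both stimulated groups, by 2.01 and 0.999, and was lower in YFP+ than in YFP- samples by a difference of -1.01 (adjusted p = 7.2e-06, 0.0012 and 0.0048 in limma). Fasl, the gene of Fas ligand, was high already in unstimulated samples, at 75.3 to 107 CPM, and measured 109 to 135 CPM in YFP- and 46.8 to 108 CPM in YFP+ samples. Its differences of 0.39 in YFP- against unstimulated (adjusted p = 0.17 in limma) and -0.56 in YFP+ against YFP- samples (adjusted p = 0.094) did not pass, although neither pair of groups overlapped. The latter did pass with quantile normalization, at -0.47 (adjusted p = 0.046 in limma), and the former without replicate m3, at 0.44 (adjusted p = 0.036). Tnfsf15, the gene of TL1A, had at most 25 reads in a library, Tnfsf18, the gene of the GITR ligand, at most 2, and both stayed under the filter.

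**Figure D4:**
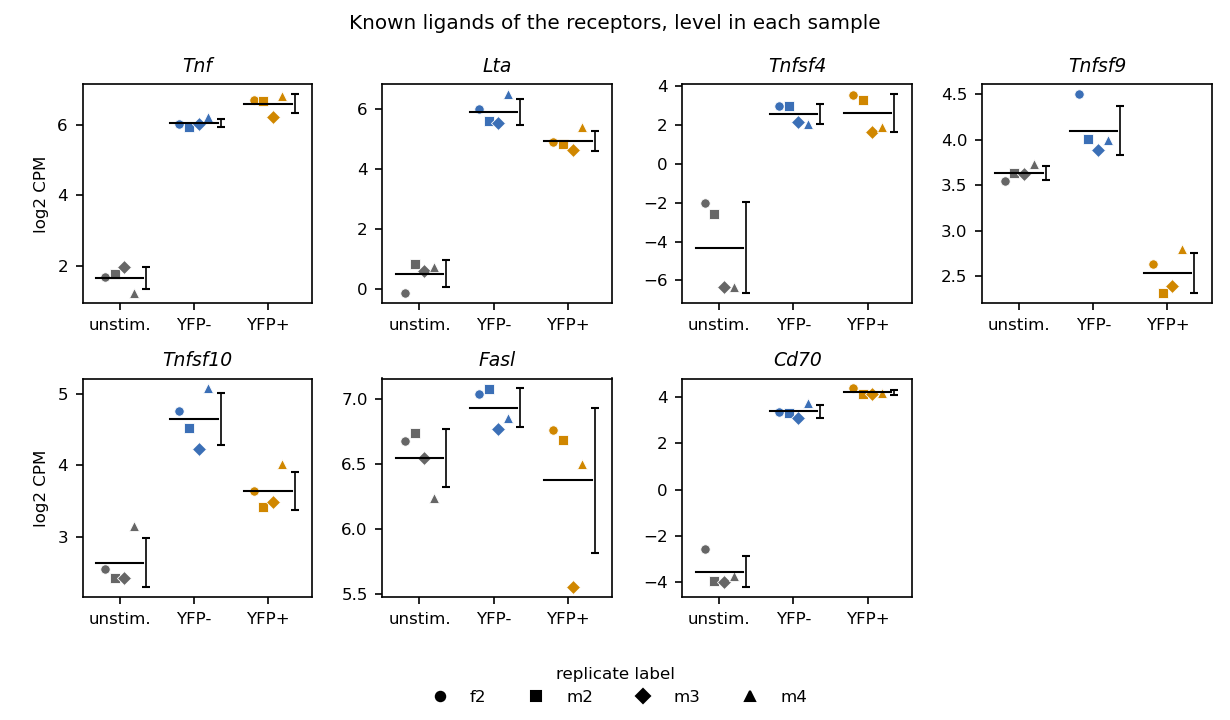
Level of the 7 tested ligand genes of the receptors (log2 CPM, vertical axis, own scale per gene) in the 4 samples of each group; symbols are the replicate labels, lines group means and bars the SD. Cd70 and Tnf are highest in YFP+ samples, at 17.8 to 20.9 and 74.97 to 113 CPM, while Tnfsf9 is lowest there, at 4.96 to 6.97 CPM.

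Of 19 other receptor genes of the family 12 were tested. Of the 12, 4 were higher and 2 lower in YFP- against unstimulated samples, with a median change of 0.20, both close to all genes (51.1% called, median 0.14). For YFP+ against unstimulated samples 3 were higher and 5 lower, with a median of -0.72, beside 60.8% and -0.03 for all genes. For YFP+ against YFP- samples 1 was higher and 3 were lower, with a median of -0.78, beside 21.8% and -0.19 for all genes. Tnfrsf12a, the receptor gene for TWEAK, was the other receptor that climbed through all groups, at 1.68 to 2.21 CPM, 4.18 to 5.51 CPM and 7.49 to 8.68 CPM. Its difference in YFP+ against YFP- samples was 0.74 (SE 0.16, adjusted p = 0.0043 in limma). Cd40, best known from antigen-presenting cells, was at 0 in 3 unstimulated samples and at 0.210 CPM (8 reads) in m2, at 1.52 to 2.19 CPM in YFP- samples and at 0.0311 to 0.277 CPM in YFP+ samples. It passed in YFP- against unstimulated (adjusted p = 0.00014 in limma) and in YFP+ against YFP- samples (adjusted p = 0.0055), where every YFP+ was below every YFP- sample. Only its YFP- samples were above the filter's level, 1 CPM. Cd40 was thus tested only because it was high in that group, which favours both calls in advance. Of the 4 B cell markers, Cd79b was at 1.05 to 3.33 CPM in unstimulated samples, 0.599 to 2.32 CPM in YFP- samples and 0.0552 to 1.25 CPM in YFP+ samples, Cd79a reached at most 0.771 CPM, Ms4a1 0.0617 CPM and Pax5 0.0451 CPM, and their part in the Cd40 values was not tested.

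Tnfrsf26, Tnfrsf23 and Tnfrsf22, which in mice lie as a cluster and include decoy receptors for TRAIL, were all lower in YFP+ than in unstimulated samples. Tnfrsf26 was at 5.38 to 8.29 CPM in unstimulated, 1.75 to 4.44 CPM in YFP- and 0.0622 to 0.525 CPM in YFP+ samples, a log2 difference of -3.67 in YFP+ against YFP- samples (SE 0.48, adjusted p = 0.00015 in limma). Its YFP- samples were also below all unstimulated samples, by -1.19, which did not pass as deposited (adjusted p = 0.052 in limma). That difference passed in several other settings, for example at -1.28 with quantile normalization (adjusted p = 0.019 in limma) and at -1.23 with voom weights (adjusted p = 0.0020). Tnfrsf23 was at 0.816 to 1.21 CPM, 0.877 to 2.55 CPM and 0.240 to 0.498 CPM, a difference of -2.16 in YFP+ against YFP- samples (SE 0.36, adjusted p = 0.00093 in limma). Tnfrsf22 fell from 1.89 to 2.50 CPM in unstimulated to 0.166 to 1.72 CPM in YFP+ samples (adjusted p = 0.0052 in limma). Tnfrsf14 (HVEM) and Tnfrsf13c (the BAFF receptor) were lower in both stimulated groups, Tnfrsf14 by differences of -1.16 in YFP- and -1.88 in YFP+ samples and Tnfrsf13c by -1.81 and -2.66 (adjusted p from 2.8e-05 to 0.0022 in limma). Tnfrsf21 (DR6) was higher in both, by 1.38 and 1.61 (adjusted p = 1.9e-05 and 2.0e-06 in limma). Ltbr, the lymphotoxin beta receptor gene, was higher in both by 1.21 and 1.11 (adjusted p = 0.026 and 0.032 in limma). No unstimulated sample of Ltbr was above the filter's level, so it was tested only through the stimulated groups, which favours both calls in advance. These calls were lost without replicate f2, at 0.87 and 0.96 (adjusted p = 0.090 and 0.055), without m2, at 1.22 and 0.94 (adjusted p = 0.086 and 0.16), and without m3, at 1.32 and 1.13 (adjusted p = 0.051 and 0.076), and that in YFP+ samples also with no filter (adjusted p = 0.056), with a pseudocount of 1 CPM (adjusted p = 0.053) and with rRNA-like features, Lars2, Mir6236 and Gm23935 left out of the totals (adjusted p = 0.053). Tnfrsf8, Tnfrsf13b and Relt passed in no comparison as deposited. With those totals Tnfrsf13b passed in YFP+ against YFP- samples, at -1.21 (adjusted p = 0.048 in limma), and in YFP+ against unstimulated samples, at -1.04 (adjusted p = 0.043), where it also passed without replicate f2, at -1.19 (adjusted p = 0.048), and Relt passed in YFP+ against unstimulated samples, at -0.77 (adjusted p = 0.028).

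All 33 adaptors, regulators and effectors of these receptors described here were tested. Of these, 15 were higher and 5 lower in YFP- against unstimulated samples, with a median change of 0.45, beside 51.1% of all genes called and their median of 0.14. For YFP+ against unstimulated samples 9 were higher and 11 lower, with a median of -0.08, and those 20 calls of 33 were close to the 60.8% of all genes. In YFP+ against YFP- samples 0 were higher and 9 lower, with a median of -0.43, beside 21.8% of all genes and their median of -0.19. That count of 9 became 5 without replicate m2, 4 without replicate m4 and 14 when totals did not count rRNA-like features. With centring, quantile normalization, trimmed-mean scaling or voom weights 1 was higher and 5 to 7 were lower, and YFP+ against unstimulated samples gave 11 to 13 higher and 9 lower.

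The largest rises in YFP- against unstimulated samples were those of Tank, a TRAF-binding regulator of NF-kappaB, at 2.24 (adjusted p = 0.00036 in limma), Traf5, an adaptor of OX40 and CD27, at 1.82 (adjusted p = 0.00091), and Tnip1, a partner of the NF-kappaB inhibitor A20, at 1.71 (adjusted p = 0.0020). Traf5 measured 5.67 to 8.26 CPM before stimulation, 22.9 to 30.5 CPM in YFP- samples and 15.2 to 65.6 CPM in YFP+ samples. In YFP+ against unstimulated samples Traf5, at 2.24, Traf4, at 1.29, and Cflar, at 1.26, rose most (adjusted p = 0.00011, 8.8e-05 and 0.00020 in limma). Cflar encodes cFLIP, which blocks caspase-8 at death receptors.

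The largest falls among these 33 genes in YFP- against unstimulated samples were those of Ripk3, the necroptosis kinase, at -1.24, Ripk1, a kinase at death receptors, at -0.79 and Tab2, an adaptor of the kinase TAK1, at -0.69 (adjusted p = 0.00051, 0.00037 and 0.0013 in limma). In YFP+ against unstimulated samples Ripk3 changed by -1.72, Tab2 by -1.67 and Tradd, the death-domain adaptor of TNF receptor 1 and DR3, by -1.47 (adjusted p = 1.9e-05, 3.2e-07 and 2.0e-06 in limma). Tradd was at 87.7 to 93.8 CPM in unstimulated, 54.8 to 74.5 CPM in YFP- and 27.5 to 40.7 CPM in YFP+ samples, without overlap. In YFP+ against YFP- samples Birc3, the gene of the ubiquitin ligase cIAP2, changed most, by -1.69 (SE 0.23, adjusted p = 0.00020 in limma), from 15.0 to 31.0 CPM to 5.04 to 9.61 CPM. Tab2 changed by -0.98 and Tradd by -0.95 in that comparison (adjusted p = 0.00033 and 0.00068 in limma).

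**Figure D5:**
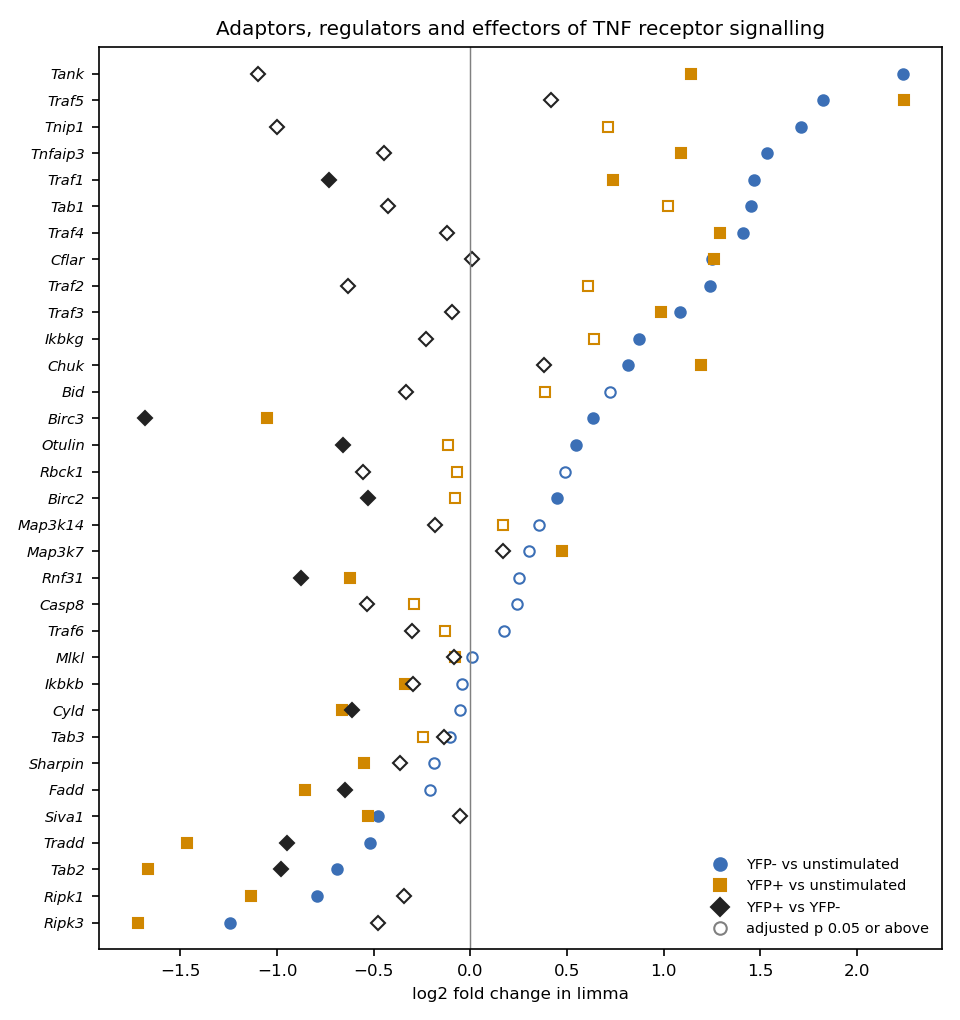
Log2 fold change in limma (horizontal axis) of the 33 adaptors, regulators and effectors in the 3 comparisons, ordered by the change in YFP- against unstimulated samples; filled symbols have an adjusted p under 0.05. The black diamonds, YFP+ against YFP- samples, are filled for 9 genes, all to the left of 0, with Birc3 at -1.69 farthest out.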

How the data were processed

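RNA was extracted with RNeasy Plus Micro, cDNA was made from 10 ng with SMARTer Ultra Low, and libraries were read as paired 150-base ends on a NovaSeq, per the labels' protocols. The submitters' processing notes name bcl2fastq, STAR 2.7.9a, featureCounts 2.0.3 (Subread) and GRCm38. The authors deposited moderated log2 CPM for 12 samples, per the file headers. Of 55774 lines 287 were repeats and were dropped. Values matched the log2 of reads plus a prior of 0.5 reads scaled by library total, so the read counts, totals and unmoderated CPM given here were recovered from the deposited values (100% whole).

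The 12364 features above a log2 CPM of 0 in 4 or more samples were fitted together in limma 3.58.1 (R 4.3.3; lmFit, eBayes with trend), with Benjamini-Hochberg adjustment within each comparison. Fold changes are on the moderated log2 scale. Positions and exon lengths come from GENCODE M21, which held 99.53% of identifiers. Receptors, ligands, adaptors and markers, and the rule for naming genes (other receptors past the filter, ligands of the members, per comparison the 3 largest called rises and falls among adaptors, and the 2 nearest profiles per receptor), were chosen with earlier results of these data known. From these lists 1 adaptor and 1 B cell marker are not reported here, and counts leave them out. The fit was tested on simulated data. Other settings tried were the replicate label as a block, leaving out each label, only the 8 samples compared, no or a stricter filter, a pseudocount of 1 CPM, other scalings, no trend and an adjusted p under 0.01, and 2 chosen after seeing the data (without the YFP+ sample m3, and with rRNA-like features, Lars2, Mir6236 and Gm23935 left out of the totals). Python 3.11.15, numpy 2.4.6, pandas 2.3.3 and matplotlib 3.10.9 served for the rest.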

Additional observations from a re-analysis of the deposited data

Results flagged for a closer look

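Among 114 sets of 4 samples (the 9 receptors and the other named genes, in each group), 7 held a sample whose gap to the nearest of the others, divided by the range of the 4, was above Dixon's critical value for 4 samples, where chance gives about 1 set in 20, or 5.7. None was a set of the 9 receptors. In unstimulated samples m4 stood below the others for Tnfrsf13c (a gap of 0.8666 of the range), Tradd (0.918, in a narrow range of 87.7 to 93.8 CPM) and Ripk3 (0.8867) and above them for Tab2 (0.9555). These values are shares of each set's own range and not sizes. Cd40 had reads in only 1 unstimulated sample, m2 (a gap of 1, the whole range), and Cd70 was highest in unstimulated f2 (0.8315). Traf4 was higher in YFP+ sample m4 than in the other YFP+ samples (0.9363).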

How the results depend on the processing

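The 27 results of the 9 receptors were recomputed under 18 settings, giving 480 values, of which 448 kept direction and side of the threshold, 6 lost their call, 8 gained one and 18 changed sign; 16 results never changed. Tnfrsf10b and Tnfrsf25 gave no value under the filter at log2 CPM above 2. The counts of receptors called stayed within 1.5 times the reported ones. No changed sign belonged to a called difference, and the cause of the changes was not tested. "Reduced totals" below leave out rRNA-like features, Lars2, Mir6236 and Gm23935. For Tnfrsf1a the sign changed in YFP+ against YFP- samples with median centring (0.022) and without the YFP+ sample m3 (0.17), and leaving out each label gave -0.41 to 0.05 (above 0 without m3). In YFP- against unstimulated samples it changed with quantile normalization (-0.063) and reduced totals (-0.021), and in YFP+ against unstimulated samples with centring (0.044), trimmed-mean scaling (0.051), voom weights (0.069) and without the YFP+ sample m3 (0.33), leaving out each label giving -0.27 to 0.37. For Tnfrsf1b it changed in YFP- against unstimulated samples with quantile normalization (-0.036) and reduced totals (-0.00299), for Tnfrsf18 in YFP+ against unstimulated samples with both (-0.073 and -0.091), and for Tnfrsf10b in YFP+ against YFP- samples with quantile normalization (0.25), centring (0.17), trimmed-mean scaling (0.065) and voom weights (0.066).

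Of 1542 values for the other named genes 1422 stayed, 41 lost a call, 49 gained one and 30 changed sign. In YFP+ against YFP- samples, Tnfrsf8, Ltbr and Traf4 changed sign with quantile normalization (0.36, 0.31, 0.13), centring (0.18, 0.16, 0.14), trimmed-mean scaling (0.068, 0.050, 0.030) and voom weights (0.081, 0.13, 0.017), Tnfrsf13c with quantile normalization (0.062) and Cflar with rRNA-like features out of the totals (-0.027). In YFP- against unstimulated samples Relt changed with quantile normalization (-0.083), centring (-0.089) and reduced totals (-0.13), and in YFP+ against unstimulated samples Fasl without the YFP+ sample m3 (0.099). Leaving out each label in turn, values straddled 0 in YFP+ against YFP- samples for Tnfrsf8 (-0.30 to 0.031), Ltbr (-0.29 to 0.096), Tnfsf4 (-0.13 to 0.24) and Cflar (-0.16 to 0.16), in YFP- against unstimulated samples for Tnfrsf8 (-0.83 to 0.14), Tnfrsf13b (-0.00641 to 0.65) and Relt (-0.086 to 0.17), and in YFP+ against unstimulated samples for Fasl (-0.32 to 0.097).

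With the replicate label as a replicate block, 4, 6 and 6 receptors were called in YFP+ against YFP-, YFP- against unstimulated and YFP+ against unstimulated samples, as without it. Over all 12364 genes tested, 3098, 6682 and 7774 were called in that fit. Among the other named genes the call of Tnf in YFP+ against YFP- samples was lost (0.55, adjusted p = 0.054 in limma). There 8 calls were gained, among them Tnfrsf13b in YFP+ against YFP- (-1.20, adjusted p = 0.025 in limma) and against unstimulated samples (-0.85, adjusted p = 0.049). Deviations of same-label samples correlated at -0.059 to 0.375 and 3 of 12 pairs were best with their own label. In YFP+ against YFP- samples the correlations were 0.054, 0.350, 0.374 and 0.172 for f2, m2, m3 and m4. Such correlations cannot settle whether the label pairs samples, and the main fit leaves the label out. Under the stricter filter 4 of the other receptors remained, of which 2, 2 and 3 were called, and 4 adaptors were called in YFP+ against YFP- samples at an adjusted p under 0.01.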
